A study of Mus musculus with 2 samples.

Results

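The 10 genes described here encode integrins of white blood cells and platelets: Itgam, Itgax, Itgad, Itgal, Itgb2, Itga4, Itga2b, Itgb3, Itga2 and Itgae. They were chosen by name out of 21911 protein-coding genes of the mouse annotation, with earlier peak counts of the same data known, so their coverage is given as a description and carries no test. The assay was chromatin immunoprecipitation and sequencing of histone H3 trimethylated at lysine 27 (H3K27me3), in 2 biological replicates of MEL, an immortalized mouse leukaemia line of red cell type. Both replicates form a single group, untreated as far as the labels say, and no other condition was measured. The labels give neither age nor sex nor separate cultures for the replicates, so their spread may be technical. The authors deposited 1 list of peaks per replicate, a pooled list called from the reads of both, and a shorter list drawn from these 3, here called the replicated list after its name.

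Integrins are cell surface receptors made of an alpha and a beta chain, and they hold cells to other cells, to matrix or to plasma proteins. The products of Itgal, Itgam, Itgax and Itgad are alpha chains that share the beta chain made by Itgb2, and they are typical of lymphocytes, granulocytes, macrophages and dendritic cells. Itga2b and Itgb3 encode the chains of the platelet fibrinogen receptor. H3K27me3 is placed by Polycomb repressive complex 2, and it is found over genes that a cell lineage keeps silent.

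Each gene was examined over its body plus 20 kb on each side, called its window here, on mm10. Longer genes have more room for a peak, and no count of genes with a peak was adjusted for length. Replicate 1 held 70901 peaks covering 16.1 Mb of chromosomes 1 to 19, X and Y, and replicate 2 held 106995 peaks covering 23.9 Mb, so any window may hold more peaks in replicate 2. Over all protein-coding genes the mean covered share of a window was 1.06% in replicate 1 and 1.48% in replicate 2. The lists carry no read counts, so depth is unknown and intervals from counts cannot be given. A peak list cannot tell a mark carried by few cells from a weak mark carried by many. The label of the line was set beside the marker genes that define cell types. None of 11 erythroid markers had a replicated peak in its body, against 4 of 7 macrophage and granulocyte markers, 1 of 5 T cell markers and 1 of 4 B cell markers, beside 11.5% of all protein-coding genes. Counted by window, 4 of 11 erythroid markers had a replicated peak, against 30.9% of all genes, and the most covered was the erythropoietin receptor gene Epor at 4.34%. A peak list does not measure expression, and these counts neither bear out nor contradict the label.

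The integrin genes fell into a densely covered trio, a sparsely covered pair and 5 genes with no replicated peak in their windows. Itgam, Itgax and Itgad, neighbours on chromosome 7, had between 10.6% and 13.2% of their windows covered in the replicated list. Itga2b and Itgb3, both on chromosome 11, had 1.65% and 0.772%, all of it outside the gene bodies. Itgal, Itgb2, Itga4, Itga2 and Itgae had none. In all, 5 of 10 windows held a replicated peak, against 30.9% of all protein-coding genes, and 3 of 10 gene bodies did, against 11.5%. At least 10% of the window was covered for 3 of 10, against 1.91% of all genes, a threshold taken after the values were seen. These 3 are the trio, whose windows overlap and share peaks, so they are not separate observations. At the gene starts, taken with 1 kb on each side, no member had a replicated peak, against 3% of all genes. In the pooled list 5 of 10 windows and 0 of 10 starts held a peak, against 39.2% and 4.48% of all genes. In replicate 1 these were 6 windows and 0 starts, against 42.2% and 4.46%, and in replicate 2 they were 7 windows and 2 starts, against 49.8% and 6.28%. Bodies with a peak were 3 of 10 in replicate 1, against 16.4% of all genes, and 6 of 10 in replicate 2, against 20.4%. Windows covered over at least 10% were 1 of 10 in replicate 1 (Itgad), against 1.94% of all genes, and 3 of 10 in replicate 2, against 3.22%. Itgam at 9.82% and Itgax at 9.99% lay just under that threshold in replicate 1. The median covered share was 0.386% over the 10 windows and 0% over all genes, and the mean was 3.79% over the 10 windows and 0.901% over all genes.

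**Figure D1:**
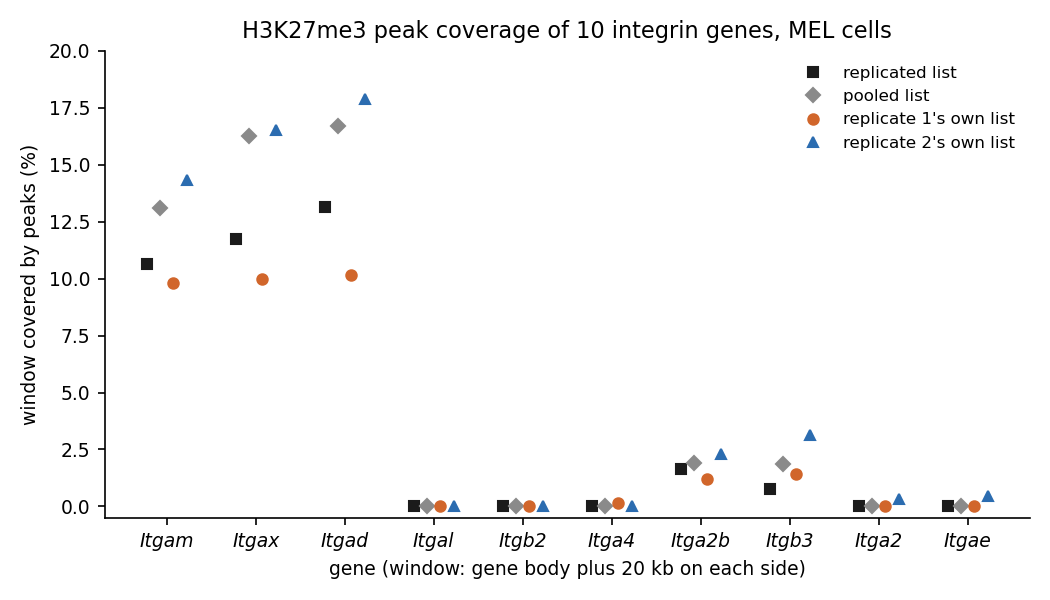
Share of each window covered by peaks (y axis, percent) for the 10 integrin genes (x axis), with a mark for each of the 4 lists. Itgam, Itgax and Itgad lie between 9.82% and 17.9% in every list, and the other members lie at or below 3.12%.

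Itgam encodes CD11b, the alpha chain of the complement receptor that macrophages and neutrophils use to bind opsonized particles. The gene lies at chr7:128062640-128118491 on the plus strand. Peaks covered 9.82% of its window in replicate 1 and 14.3% in replicate 2 (mean 12.1% ± 3.17, SD, n = 2). The replicated list covered 10.6% with 30 peaks, 25 of which touched the gene body. Within the body alone the share was 15.2% in replicate 1 and 18.8% in replicate 2. Of 21911 protein-coding genes, 373 or 1.70% had a window covered as much or more in the replicated list, as did 11 of 2021 genes of chromosome 7. Such counts include the gene itself. The 11 also include Itgax, Itgad, Cox6a2 and Gm49368 of the same stretch, where windows overlap.

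Itgax encodes CD11c, a complement receptor chain used widely to recognise dendritic cells, and lies at chr7:128129547-128150657. Its window was covered over 9.99% in replicate 1 and 16.5% in replicate 2 (mean 13.2% ± 4.61, SD, n = 2). The replicated list held 23 peaks in the window, but only 9 touched Itgax itself, since the flanks reach into Itgam and Itgad. Inside the body the shares were 11.3% in replicate 1 and 14.5% in replicate 2, below the body shares of Itgam in both replicates.

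Itgad encodes CD11d, the chain of the family found on macrophages of the spleen and on some other leukocytes, and is annotated over chr7:128154376-128223816. Its window was covered over 10.2% in replicate 1 and 17.9% in replicate 2 (mean 14.0% ± 5.46, SD, n = 2). The replicated list put 37 peaks in the window, 25 of them in the body. By this list 229 protein-coding genes, or 1.05%, had windows covered as much or more. The shares of the 3 genes, whose windows overlap, ran in the order Itgam, Itgax and Itgad in both replicates, but their means differed by less than the SD between replicates.

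**Figure D2:**
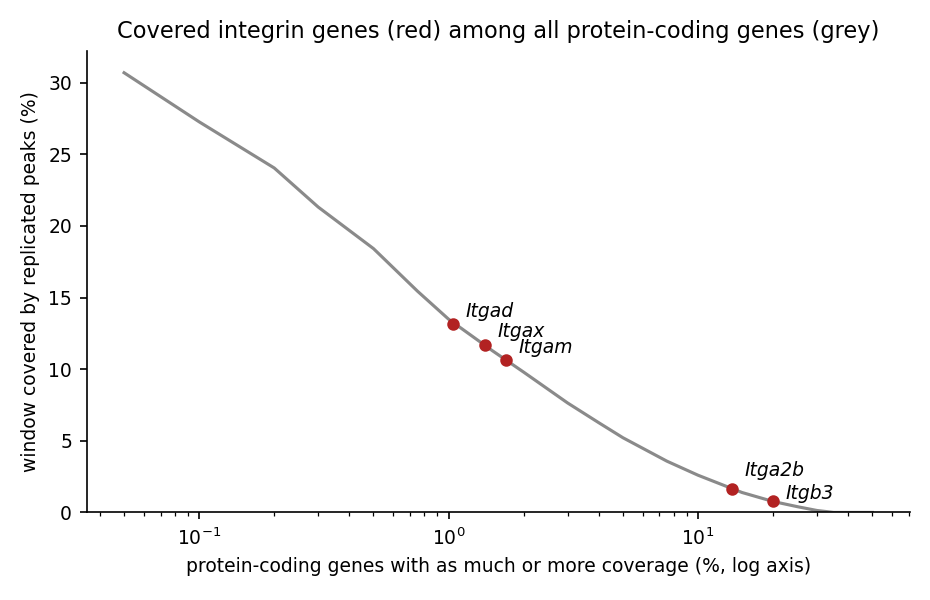
Share of the window covered by replicated peaks (y axis, percent) against the percent of protein-coding genes covered as much or more (x axis, log scale). Itgad, Itgax and Itgam lie at 1.05%, 1.41% and 1.70% of genes, and Itga2b and Itgb3 at 13.7% and 19.9%.

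Peaks over the trio were spread over many sites along a stretch, with gaps between them. From 20 kb before Itgam to 20 kb after Itgad, a length of 201.2 kb, replicate 1 had 81 peaks covering 10.04%, replicate 2 had 119 peaks covering 16.2%, and the replicated list had 66 peaks covering 12.1%. The stretch between Itgax and Itgad, of 3.72 kb, was covered over 3.87% in replicate 1 and 16.4% in replicate 2. Between Itgam and Itgax the shares were 1.69% and 16.4% in replicates 1 and 2. These stretches between members were thus sparsely covered in replicate 1 and densely covered in replicate 2. The replicated list covered 18.9% from Itgax to Itgad and 5.17% from Itgam to Itgax. The stretch from Itgam to Itgax is not free of genes, as the gene model Gm49368 reaches into it. Before Itgam the coverage was low in both replicates: the 20 kb upstream had 2.04% in replicate 1 and 2.93% in replicate 2. The 20 kb after Itgad had 2.16% in replicate 1 and 7.08% in replicate 2.

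Peaks crowded into the same parts of the genes in both replicates. In bins of 10 kb counted from the Itgam start, the bin from 40 to 50 kb, inside Itgam, was the most covered one of the stretch, at 35.6% in replicate 1 and 42.1% in replicate 2. Within Itgad the bin from 130 to 140 kb had 20.3% and 33.2% in replicates 1 and 2, and the bin from 150 to 160 kb had 24.4% and 33.6%. The bin from 140 to 150 kb between them was nearly empty, with 0.63% in replicate 1 and 4.65% in replicate 2. It holds Cox6a2, a gene of a cytochrome c oxidase subunit of muscle and heart that lies inside Itgad, and none of the 4 lists had a peak in its body.

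**Figure D3:**
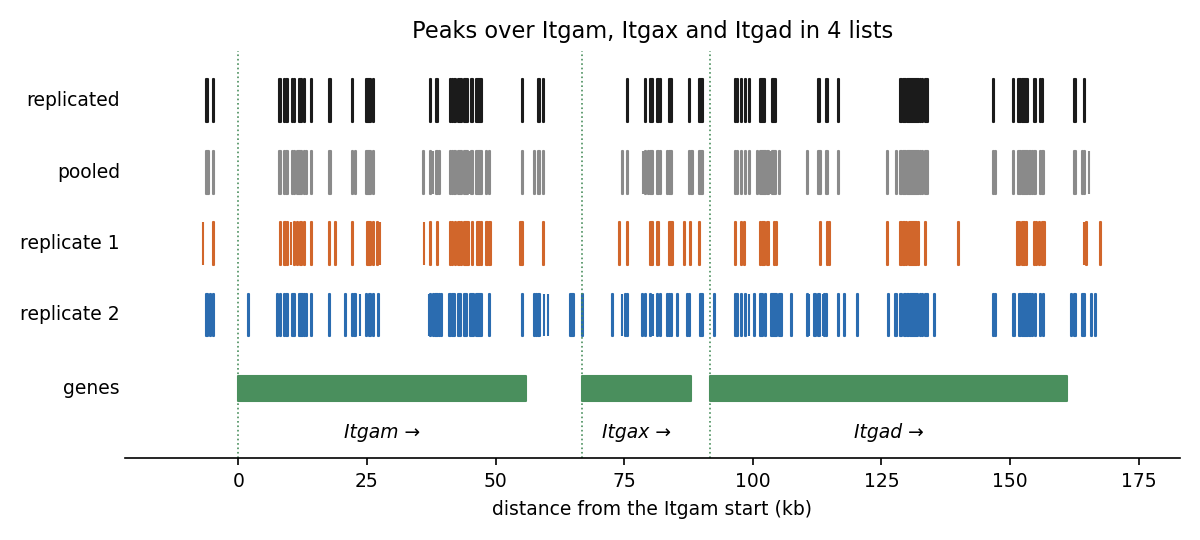
Peaks of the 4 lists (rows) over Itgam, Itgax and Itgad, by distance from the Itgam start in kb. Dotted lines mark the outermost gene starts, and peaks between 37 and 47 kb after the Itgam start are present in every row.

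When replicated peaks no more than 3 kb apart were joined, the stretch broke into 15 runs, of which 1 reached 10 kb. That run measured 10142 bp, lay inside Itgam (chr7:128099866-128110007) and had 46.3% of its bases in peaks. Genome-wide 486 of 14456 joined runs were as long or longer. Joined in the same way, the longest run of the stretch was 13075 bp in replicate 1, again inside Itgam, and 23816 bp in replicate 2, inside Itgad. The place of the longest run therefore differed between the replicates, while the most covered bin did not.

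Most peaks over the trio were weak by the authors' own measures. In the replicated list 8 of 66 peaks of the stretch had a −log10 q of 2 or more, or 12.1%, against 10.9% of all replicated peaks. In the replicates' own lists these were 35 of 81 peaks in replicate 1 (43.2%, against 30.8% of all its peaks) and 24 of 119 in replicate 2 (20.2%, against 12.0%). In the replicated list the peak with the highest −log10 q (2.79) and the widest (1810 bp) were the same one, inside Itgad at chr7:128193100-128194909. Replicate 1 had its highest −log10 q of the stretch, 7.25, at chr7:128193056-128194650, over the same place. Replicate 2 had its highest, 5.94, inside Itgam at chr7:128101035-128101368. Itgax had no replicated peak with a −log10 q of 2 or more in its window, and its highest was 1.49. With only peaks of a −log10 q of 2 or more counted, the replicated list covered 1.95% of the window of Itgam, 0% of that of Itgax and 3.58% of that of Itgad.

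**Figure D4:**
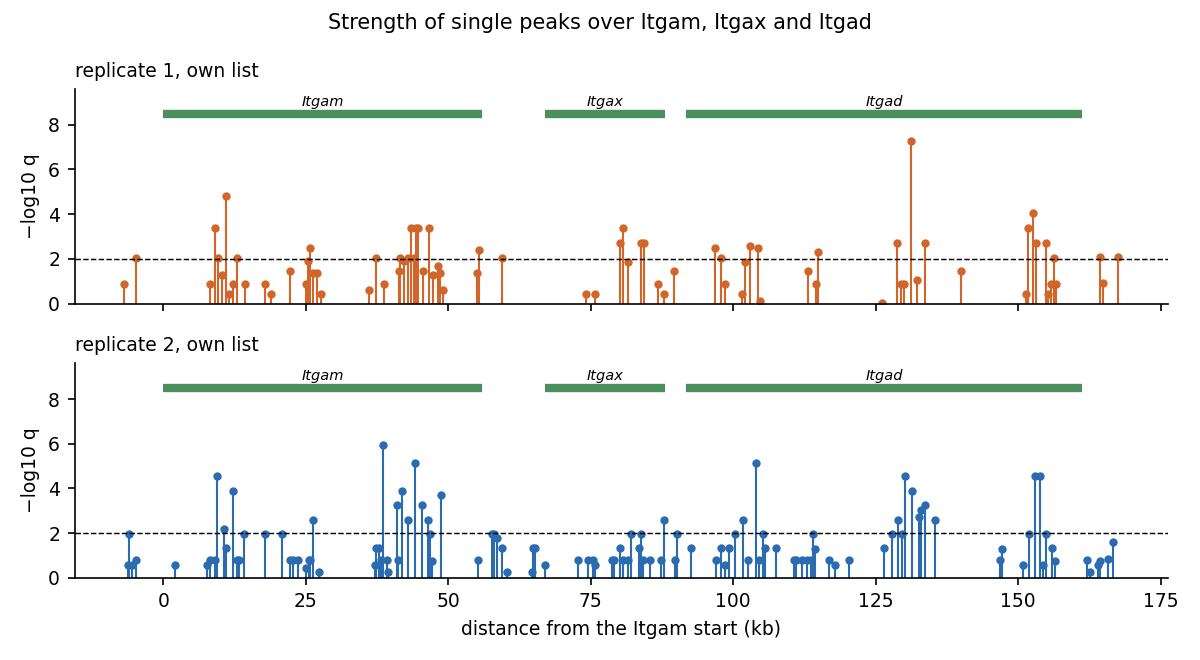
The −log10 q of each peak (y axis) over Itgam, Itgax and Itgad in the own list of each replicate, by distance from the Itgam start in kb, with a dashed line at 2. Of 81 peaks in replicate 1, 35 reach the line, as do 24 of 119 in replicate 2.

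The centres of the strongest replicated peak in the body of each of the 3 genes are printed here to show what kind of sequence carried the mark. Strongest means the highest −log10 q, and the widest peak where values tied, as they did in Itgam and Itgax. Each is 201 bases around the summit, read 5′ to 3′ on the plus strand of GRCm38.p6 (the build mm10 names), with CpG dinucleotides in capitals.
Itgam peak centre (chr7:128106899-128107099, + strand): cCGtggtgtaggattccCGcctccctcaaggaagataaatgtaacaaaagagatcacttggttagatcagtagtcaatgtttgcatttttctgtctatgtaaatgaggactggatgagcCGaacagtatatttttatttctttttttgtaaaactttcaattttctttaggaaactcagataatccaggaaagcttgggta
Itgax peak centre (chr7:128146748-128146948, + strand): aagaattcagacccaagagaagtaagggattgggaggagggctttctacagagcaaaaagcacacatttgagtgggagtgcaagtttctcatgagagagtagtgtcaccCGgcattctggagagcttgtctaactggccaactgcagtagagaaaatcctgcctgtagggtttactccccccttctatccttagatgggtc
Itgad peak centre (chr7:128193873-128194073, + strand): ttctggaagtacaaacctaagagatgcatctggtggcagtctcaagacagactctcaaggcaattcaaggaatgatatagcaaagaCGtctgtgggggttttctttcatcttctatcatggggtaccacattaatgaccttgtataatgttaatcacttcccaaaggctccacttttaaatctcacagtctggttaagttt
None of the 3 overlapped an exon of its gene. The Itgam centre held 3 CpGs and the other 2 centres held 1 each, and 36.3% of the Itgam centre, 48.3% of the Itgax centre and 40.3% of the Itgad centre was G or C. From the Itgam start to the Itgad end, bases in replicated peaks had 8.20 CpGs per kb, against 10.7 outside them. Genome-wide the direction was the other way, with 8.61 CpGs per kb in replicated peaks and 8.26 outside. Soft-masked bases, which the assembly marks as repeats, made up 22.4% of the bases in peaks and 35.6% of those outside. Genome-wide the soft-masked shares were 19.6% in replicated peaks and 36.5% outside. Whether the share of repeats played a part in where peaks were called was not tested.

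Introns held most of the covered bases of the trio. In Itgam 15.4% of intron bases and 13.0% of exon bases were covered in replicate 1, and 19.1% and 15.1% in replicate 2. Itgax had 13.3% of intron and 4.68% of exon bases covered in replicate 1, and 14.6% and 13.9% in replicate 2. Itgad had 11.8% of intron and 11.5% of exon bases in replicate 1, and 21.6% and 11.8% in replicate 2. The intron share was the larger in all 3 genes in both replicates and in the replicated list. The pooled list differed for Itgam, with 18.8% of intron and 20.0% of exon bases covered.

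The starts of the trio lay in gaps between peaks. The nearest replicated peak lay 4701 bp upstream of the Itgam start, 7399 bp upstream of the Itgax start and 1453 bp upstream of the Itgad start. In replicate 1 the nearest peaks lay 4701, 7083 and 2017 bp from the starts of Itgam, Itgax and Itgad. Replicate 2 differed: it had a peak across the Itgax start (chr7:128129419-128129593), one 783 bp after the Itgad start and one 1915 bp after the Itgam start. The gap around the Itgam start, between replicated peaks, measured 12.6 kb, and the gap around the Itgax start 16.0 kb. Starts further inside the genes were not all free of peaks, as 1 of 4 annotated Itgax transcript starts lay within 1 kb of a replicated peak. Of the 418 protein-coding genes with at least 10% of the window covered, 173 or 41.4% had such a peak at the outermost start and 245, the trio among them, had none.

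Promoters of Itgam, Itgax and Itga2b are printed as the 250 bases before the RefSeq gene start on GRCm38.p6. Each is read 5′ to 3′ on the strand of the gene. The outermost annotated starts of these genes, which can differ from the RefSeq starts, had no replicated peak. For Itga2b the printed bases lie almost wholly inside the annotated gene, whose outermost start is at chr11:102470122. Among members with a listed promoter, these alone held a match to a short sequence named next. Itga4 and Itga2, whose starts also lacked a replicated peak, held no match. Capitals mark matches, on either strand, to GAGGAAG, a form of the site bound by the myeloid factor PU.1, or to AGATAA, a form of the site bound by GATA factors. No 2 matches overlap.
Itgam promoter (chr7:128062390-128062639, + strand): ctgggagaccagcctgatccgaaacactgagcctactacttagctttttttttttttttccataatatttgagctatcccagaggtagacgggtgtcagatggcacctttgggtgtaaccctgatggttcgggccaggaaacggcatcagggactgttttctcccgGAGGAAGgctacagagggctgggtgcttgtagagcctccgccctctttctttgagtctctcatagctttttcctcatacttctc
Itgax promoter (chr7:128129300-128129549, + strand): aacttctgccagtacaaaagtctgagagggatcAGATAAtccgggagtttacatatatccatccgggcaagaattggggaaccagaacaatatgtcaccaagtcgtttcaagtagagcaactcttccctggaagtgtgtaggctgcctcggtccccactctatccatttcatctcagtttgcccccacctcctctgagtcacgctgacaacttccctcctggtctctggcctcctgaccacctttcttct
Itga2b promoter (chr11:102469884-102470133, - strand): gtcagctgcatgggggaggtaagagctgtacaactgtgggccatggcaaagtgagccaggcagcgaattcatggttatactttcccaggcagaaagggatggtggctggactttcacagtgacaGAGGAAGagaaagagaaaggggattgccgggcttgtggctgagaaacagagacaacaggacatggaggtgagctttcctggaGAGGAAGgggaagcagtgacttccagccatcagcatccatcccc
GAGGAAG matched 1 time in Itgam and 2 times in Itga2b, and 10.6% of the 32851 promoters in the table held it. AGATAA matched 1 time in Itgax, and 9.99% of promoters held it. Such a match is a run of letters and not a bound site. The table held 5 members. Their promoters had 6 CpGs in Itgam, 5 in Itgax, 6 in Itga4, 2 in Itga2b and 12 in Itga2, and the median of all promoters was 6. For Itgad, Itgal, Itgb2, Itgb3 and Itgae no promoter was listed, so theirs were not searched for matches.

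The replicates shared more of the trio than of the genome at large, a difference that was not tested. Over the stretch with its flanks, 60 of 81 peaks of replicate 1 (74.1%) overlapped a peak of replicate 2, against 44.9% genome-wide, and 53 of 119 peaks of replicate 2 (44.5%) overlapped one of replicate 1, against 29.8%. Bases covered in both replicates made up 26.1% of bases covered in either, against 15.8% genome-wide. One control alignment served both replicates, and densely covered places offer more partners. Of the 66 replicated peaks, 50 overlapped the own lists of both replicates, 1 that of replicate 1 only and 15 that of replicate 2 only. Replicate 2 covered 1.61 times as many bases as replicate 1 over the stretch, against 1.49 times genome-wide.

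Itgal encodes CD11a, the alpha chain of the lymphocyte receptor LFA-1 that binds ICAM ligands, and it lies on the same chromosome arm as the trio at chr7:127296260-127335138. None of the 4 lists had a peak in its window. The nearest peak lay 136493 bp from its start in replicate 1, 62557 bp in replicate 2 and 451115 bp in the replicated list. Among genes of chromosome 7, 24.8% had a replicated peak in the window. The 727.5 kb between the end of Itgal and the start of Itgam held 38 protein-coding genes, of which 1 had a replicated peak in its body, against 11.5% of all protein-coding genes. That gene was Prss36, a serine protease gene named here after its values were seen. A run of 11 replicated peaks lay over its start and upstream of it (chr7:127945896-127955558), with 14 peaks there in replicate 1 and 26 in replicate 2. Outside that run the stretch from Itgal to 20 kb before Itgam held 0 replicated peaks, 6 peaks in replicate 1 and 7 in replicate 2.

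**Figure D5:**
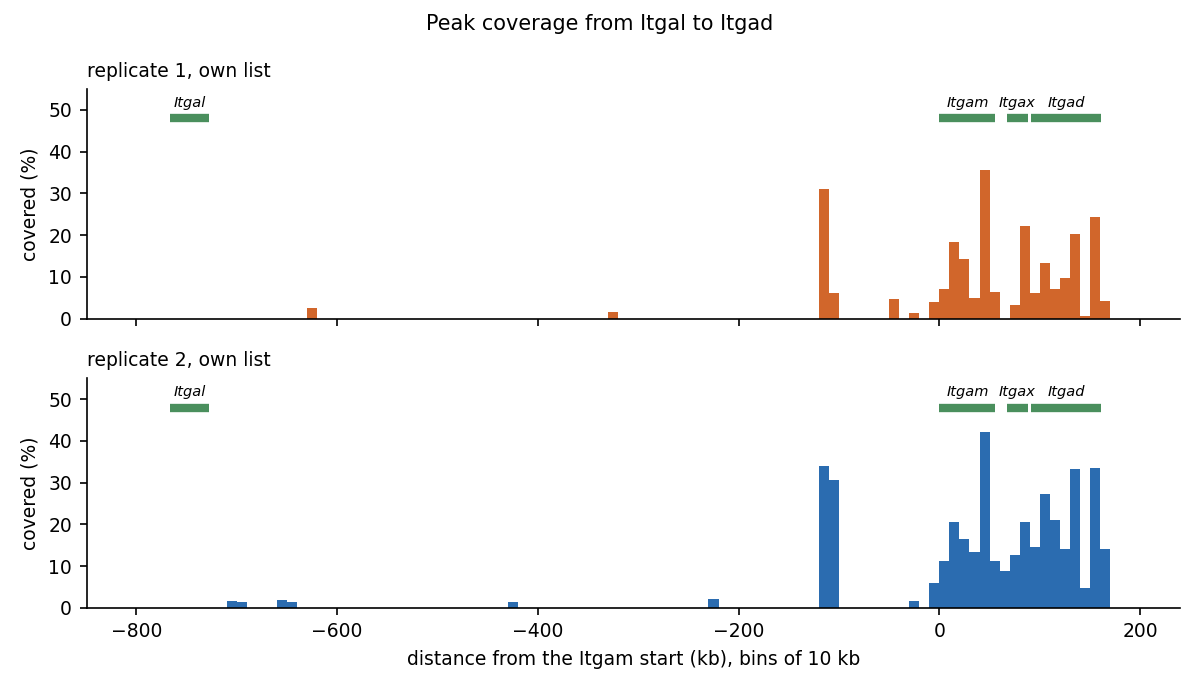
Share of each 10 kb bin covered by peaks (y axis, percent) from Itgal to Itgad in the own list of each replicate, by distance from the Itgam start in kb, with green bars for the genes. Bins over Itgal are at 0, the run beside Prss36 lies 100 to 120 kb before Itgam, and the bins over the trio reach 35.6% in replicate 1 and 42.1% in replicate 2.

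Itgb2 encodes CD18, the beta chain that all 4 of these alpha chains need to reach the cell surface, and it lies at chr10:77530252-77565708. Its window held 0 peaks in each of the 4 lists. The nearest peak lay 60603 bp upstream of its start in replicate 1 and 57720 bp in replicate 2. On chromosome 10, 27.3% of genes had a replicated peak in the window. Within the family, therefore, 3 alpha chain genes were densely covered while the fourth alpha chain gene and the shared beta chain gene had no peak.

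Itga4 encodes the alpha chain of VLA-4, which holds blood progenitors and lymphocytes to VCAM-1 and fibronectin, and it lies at chr2:79255426-79333123. Its window held 1 peak in replicate 1, of 161 bp, 16844 bp upstream of the start (chr2:79238422-79238582, −log10 q 2.02), and 0 peaks in the 3 other lists. On chromosome 2, 32.8% of genes had a replicated peak in the window. Within 1 kb on each side of the start the CpG content, per kb, was 26.5 at Itga4. In the trio it was 14.5 at Itgam, 11.5 at Itgax and 28.5 at Itgad, and at the uncovered Itgal and Itgb2 it was 13.0 and 12.5. The remaining members had 39.5 at Itgb3, 28.5 at Itga2, 14.99 at Itga2b and 9.995 at Itgae. No member had a replicated peak at its start, so these values describe places apart from the covered bases. Whether CpG content played a part in the coverage was not tested.

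Itga2b encodes CD41, the platelet and megakaryocyte alpha chain, and lies at chr11:102453297-102470122 on the minus strand. Its window was covered over 1.20% in replicate 1 and 2.29% in replicate 2 (mean 1.74% ± 0.775, SD, n = 2). None of the 4 lists had a peak in the gene body. All the peaks of the window lay downstream, between Itga2b and its neighbour Fam171a2. The wider of 2 replicated peaks, of 731 bp with a −log10 q of 2.12, lay 3613 bp past the end of Itga2b and 1272 bp from Fam171a2. Replicate 1 had 2 peaks there, and replicate 2 had 4, the strongest with a −log10 q of 4.87. That strongest peak lay over the narrower replicated peak, of 204 bp, where replicate 1 had no peak.

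Itgb3 encodes CD61, the beta chain that pairs with CD41 on platelets, and lies at chr11:104608000-104670476. Its window was covered over 1.41% in replicate 1, with 5 peaks, and 3.12% in replicate 2, with 17 peaks (mean 2.27% ± 1.21, SD, n = 2). The 2 replicated peaks lay upstream, 4605 and 6067 bp before the gene start, and towards Myl4, a gene of a myosin light chain. The wider of them is 573 bp (chr11:104601361-104601933), and replicate 1 had a peak of 561 bp there with a −log10 q of 4.06. The narrower, of 218 bp, overlapped a peak of replicate 1 and none of replicate 2. The body held 0 peaks in replicate 1 and 2 in replicate 2, with no replicated peak. Bases shared by the replicates were 8.15% of those covered in either, below the 15.8% of the genome. The neighbours were covered more densely than Itgb3: replicated peaks covered 4.69% of the body of Myl4 and 8.61% of that of Gm11639, on the other side.

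The centres of the strongest replicated peaks in the flanks of the platelet pair are shown in the same way, for comparison with those of the trio.
Itga2b downstream peak centre (chr11:102449476-102449676, + strand): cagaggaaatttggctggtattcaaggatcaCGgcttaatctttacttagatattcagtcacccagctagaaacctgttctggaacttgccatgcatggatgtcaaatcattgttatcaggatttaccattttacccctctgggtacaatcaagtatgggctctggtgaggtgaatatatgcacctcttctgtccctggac
Itgb3 upstream peak centre (chr11:104601699-104601899, + strand): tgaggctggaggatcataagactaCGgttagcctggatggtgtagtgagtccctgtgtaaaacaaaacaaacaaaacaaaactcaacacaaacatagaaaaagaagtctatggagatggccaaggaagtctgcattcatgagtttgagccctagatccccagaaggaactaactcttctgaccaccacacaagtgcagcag
Each held 1 CpG. Their G and C shares were 43.3% for Itga2b and 44.3% for Itgb3, between those of the Itgam and Itgax centres.

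Of the 5 chromosomes that hold the integrin genes, chromosome 11, with Itga2b, Itgb3 and Itgae, was the most widely marked. Of its 1637 protein-coding genes 48.2% had a replicated peak in the window, with a mean covered share of 2.497%. Both Itga2b at 1.65% and Itgb3 at 0.772% lay below that mean, and 29.6% and 36.2% of genes of the chromosome were covered as much or more. On chromosome 7 the mean was 0.542%, beside which the trio had 10.6% to 13.2%.

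Itgae encodes CD103, the alpha chain by which T cells of epithelia bind E-cadherin, and lies at chr11:73090583-73147446. Its window held 0 peaks in replicate 1 and 3 in replicate 2, which covered 0.448% and each had a −log10 q of 0.7998. Itga2 encodes the alpha chain of the collagen receptor of platelets and lies on the minus strand at chr13:114833081-114932100. Its window held 0 peaks in replicate 1 and 3 in replicate 2, covering 0.334%, one of which lay 2600 bp after the start with a −log10 q of 1.94. None of these peaks was in the replicated list, so peaks in the bodies of Itgae and Itga2, like those in the body of Itgb3, were found in replicate 2 alone.

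Other genes of the integrin family held peaks as well. Of 16 further integrin genes, 11 had a replicated peak in the window and 9 in the body, against 30.9% and 11.5% of all protein-coding genes. Gene length was not taken into account in this comparison. Itga1, Itga8 and Itgb4 were counted on 1 replicated peak each, covering 0.161%, 0.130% and 0.247% of their windows. The median covered share of the 16 genes was 0.604%. The most covered was Itga3, a laminin receptor chain of epithelia on chromosome 11, at 11.3% (12.1% in replicate 1 and 15.4% in replicate 2). Itgb7, whose product pairs with those of Itga4 and Itgae on lymphocytes, had 5.68% of its window covered (7.02% in replicate 1 and 5.47% in replicate 2), with no peak in its body. Itga6, a laminin receptor chain, had 4.02%, and Itga11, a collagen receptor chain, had 3.10%. At the starts of these 16 genes the replicated list had no peak. In the other lists Itga3 had a peak at its start in the pooled list and in replicate 1, and Itga6 in replicate 2.

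Ligands, activators and other platelet genes were covered less than the trio, and the shares over all genes to set beside their counts are 30.9% of windows and 11.5% of bodies. Of 18 ligands and counter-receptors 7 had a replicated peak in the window, led by Vtn (2.95%), Vcam1 (2.62%), Cdh1 (2.25%) and Icam2 (1.45%), which encode vitronectin, the endothelial ligand of VLA-4, E-cadherin and a ligand of LFA-1. Of 21 genes of integrin activation and signalling 6 did, led by the talin gene Tln1 (0.865%), the kinase genes Syk (0.514%) and Src (0.430%) and the Rap1 effector gene Apbb1ip (0.353%), and 1 had a peak in its body. Of 12 platelet surface and granule genes 6 did. Among them were Gp1bb, of the von Willebrand factor receptor (5.33%), Selp, P-selectin (5.01%), and Gp5, of the same receptor as Gp1bb (2.86%). Gene bodies held a replicated peak for 4 of the 18 ligands and counter-receptors and for 4 of the 12 platelet genes. Of the genes counted in these lists, Selp alone had a replicated peak at its start.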

How the data were processed

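H3K27me3 was measured in 2 replicates of MEL cells, grouped and numbered by the labels. Per the deposited text descriptions, peaks were called on mm10 alignments of each replicate against 1 shared control, the pooled list on both replicates, and the replicated list from these 3. Aligner, peak caller and the rule for keeping a peak: not given in the sources used here. The authors deposited for each peak a signal value, a score without a stated definition, and a −log10 p and −log10 q. Depth is unknown. The mm9 list was not used, since the gene annotation is on mm10.

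The annotation was GENCODE mouse release 21 with the NCBI GRCm38.p6 sequence, and no peak lay past the end of its chromosome. For repeated symbols the longest gene was kept. Covered length is the union of peaks, and an overlap of 1 bp counted. The code was tested on simulated peaks, where 500 of 500 windows matched counting by base. Peaks were joined within 3 kb. Python 3.11.15 and numpy 2.4.6 were used. The members and gene lists were chosen with earlier results of these data known. All members are named, and up to 4 genes of each other list, by covered share, of which 1 is not reported here. Neighbours with peaks inside a window are named by rule, and others are said to be chosen later or named for position. There is 1 group, so no test was made. Alternatives tried were flanks of 5 and 50 kb, joined peaks, 50% of a peak inside, 2.5 kb on each side of a start, any annotated start, the other lists, peaks in the upper 50% by signal value, and peaks with −log10 q no lower than 2.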

Additional observations from a re-analysis of the deposited data

How the results depend on the processing

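Itgam, Itgax and Itgad had larger covered shares than every other member in the replicated list and in 7 of the 8 alternative settings, among them the own list of each replicate. The exception was a −log10 q of at least 2, where Itgad had 3.58% covered, Itgam 1.95%, Itgax 0% and Itga2b 1.29%, so that none of the 3 kept 10%. With that setting 3 of 10 windows held a peak, in place of 5. Leaving out replicate 2 or replicate 1, which leaves the own list of the other, gave 3 to 6 genes with a peak in the body (3 in the replicated list) and 0 to 2 with a peak within 1 kb of the start (0 in the replicated list). The higher value in each came from the list of replicate 2, and the cause was not tested. One gene had a peak at its start when 2.5 kb on each side was taken (Itgad, 1 gene) and when any annotated start was taken (Itgax, 1 gene). The median covered share, 0.386% in the replicated list, was 0.935% in the pooled list, 3.13% with flanks of 50 kb, 0.993% with peaks joined within 3 kb, and 0.667% to 1.37% in the replicates' own lists. It was 0.1504% with flanks of 5 kb and 0% with a −log10 q of at least 2. Wider flanks take in neighbouring genes and joining adds bases between peaks by construction. Of 80 values of single windows under an alternative, 59 were unchanged or moved by less than the SD between replicates. Of the rest, 17 rose and 4 fell. Windows that stayed without peaks count as unchanged, as those of Itgal and Itgb2 did in every setting. The own lists of the replicates, which give the SD, are among the alternatives. No paired analysis was possible because there is only 1 group. With 2 replicates of unknown depth, the absence of peaks from a window does not show absence of the mark.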

Other observations

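Cox6a2 had 18.0% of its window covered by replicated peaks, the largest share among protein-coding genes of chromosome 7, with no peak in its own body. Its window lies almost wholly inside Itgad. Of 18 genes of chromosome 7 with at least 10% of the window covered, 5 lay in the stretch from Itgam to Itgad: these 3, Cox6a2 and Gm49368, a gene model that overlaps Itgam and had 14.2% of its body covered. These genes share peaks and are not separate observations. Cerkl, whose end overlaps that of Itga4, had 5.16% of its body covered, outside the window of Itga4.

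Peaks of the stretch shared few distinct values of −log10 p. The 66 replicated peaks had 21 distinct values, and the 3 commonest were held by 32 of them. The commonest, 4.41, was held by 12 of these peaks and by 14.6% of replicated peaks genome-wide. In replicate 2 the value 3.76 was held by 30 of 119 peaks of the stretch and by 32.9% of its peaks genome-wide.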
